A study of Mus musculus with 2 samples.

Results

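The genes described here are 40 genes of macrophage identity and phagocytosis, read by array in macrophages that were grown from the bone marrow of mice with calpain-6 (Capn6-Wt) or without it (Capn6-Ko). They comprise 5 lineage transcription factors, 11 lineage markers, 8 Fc receptors and Src-family kinases, 12 Siglec and inhibitory receptors and their partners, and 4 TAM and engulfment receptors. They were chosen by name, with earlier results of these data known. Their probes were found through the RefSeq accession that the array lists for each probe. All 40 had a probe and were well above background on both arrays, out of 20660 genes with a probe and 12875 so measured.

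Femoral marrow cells of male mice were grown in medium with 10% serum, 50 ng/mL of the macrophage growth factor M-CSF and 10 ng/mL of the inflammatory cytokine TNF-α. Both cultures had the same additions, and the genotype is the labelled difference. The day of culture is unsettled, since the labels hold both day 3 and day 4. Cells of 4 mice were pooled, whether per genotype or in all is not stated, and nothing in the sources used here describes the Capn6-Ko allele. Each genotype is 1 array, so no test between genotypes was possible and every value describes these 2 RNA pools.

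Macrophages arise from marrow progenitors under the transcription factor PU.1, encoded by Spi1, together with C/EBP factors. They recognise antibody-coated particles with Fcγ receptors, most of which signal through the shared ITAM chain Fcer1g, phosphorylated by Src-family kinases. Receptors with an ITIM, among them Fcgr2b, Sirpa, Pirb and Siglece, recruit phosphatases that restrain that signal. The TAM receptor kinases Tyro3, Axl and Mertk bind Gas6 on dying cells and start their engulfment.

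Most of the 40 genes stood at nearly the same level in both pools. Cd72, an inhibitory co-receptor, had the highest value among them, 1.55-fold higher in Capn6-Ko, followed among bright genes by Aif1, Cd52, Coro1a and Fcgr1. The only gene lower by at least 1.2-fold was Tyro3, which was dim. Values are log2 differences, Capn6-Ko minus Capn6-Wt, of the processed signal relative to the 75th percentile of its array. The ± after a difference is the SD from spot-to-spot spread, which covers spotting and scanning only and not mice, culture or RNA extraction.

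Of the 40 genes, 7 were higher in Capn6-Ko by 1.2-fold or more, a log2 size of 0.263, and 1 was lower by as much. Over all measured genes the shares past this size were 4.12% higher and 7.15% lower, or 11.3% in either direction. These genes are bright, with 35 of 40 above the median level, where the shares were 1.29% higher and 1.1% lower, or 2.39% in either direction. Of those 35 genes, 5 were at least 1.2-fold higher and 0 lower. With each array centred on its median instead, 56.6% of all genes past 1.2-fold were on the higher side, against 36.5% here. The median difference was 0.05 over the 40 genes and -0.01 over all measured genes. In all 26 of the 40 were above 0, against 47.8% of all measured genes, and the median SD of a member was 0.083. By a second measure 8 genes were higher by more than 2 spot SDs and 1 lower, against 5.23% and 6.45% of all measured genes. Of the 35 bright members 7 were higher and 0 lower by that measure, against 5.64% and 4.51% of bright genes. At 1.5-fold 1 member was higher, Cd72, and 0 were lower, against 0.334% and 1.26% of all genes and 0.0777% and 0.14% of bright ones. Of the 35, 23 were above 0, against 48.5% of bright genes.

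Some signs near 0 depend on the scaling. Centring on the median raises every difference by the same amount, and the small negative values of Maf, Laptm5, Lyz1, Lyz2, Fcgr3, Lyn and Mertk then turned positive, each to at most 0.06.

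**Figure D1:**
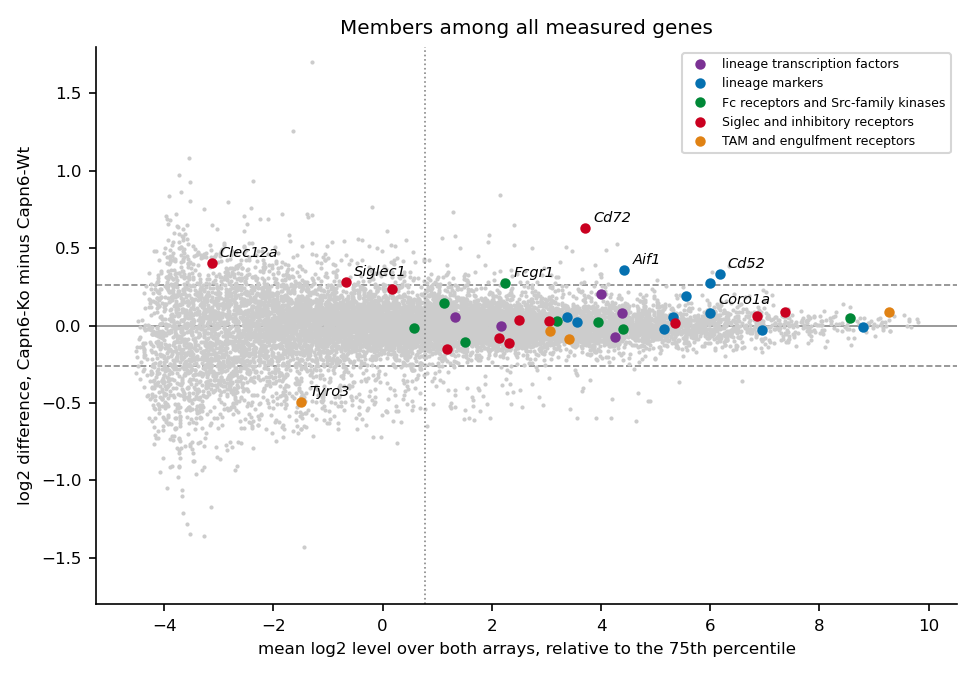
Log2 difference (Capn6-Ko minus Capn6-Wt, y axis) against mean log2 level over both arrays (x axis) for 12875 measured genes in grey and the 40 members in colour by role, with dashed lines at 1.2-fold and a dotted line at the median level. Right of the dotted line Cd72, Aif1, Cd52, Coro1a and Fcgr1 lie above the upper dashed line, and no member lies below the lower one.

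The arrays and cell markers set the frame for these values. Of 59305 non-control spots 51.7% were well above background for Capn6-Wt and 52.8% for Capn6-Ko, the 75th percentiles were 377 and 372, and no spot was saturated. Capn6 itself, read by 1 probe, stayed below the background limit on both arrays (3.93 for Capn6-Wt, 8.65 for Capn6-Ko), so it does not check the labels. Of 9 macrophage markers 8 had a probe and all 8 were measured, summing to 209890.0 and 212857. Most of that sum is the member Lyz2 (167573 and 164586). The median difference of the 8 was 0.19, with 6 above 0, and 5 were higher by more than 2 spot SDs. The 3 past 1.2-fold are Cx3cr1, Cd14 and the member Fcgr1, with values given further on. Stromal fibroblast markers were measured for 10 of 11, and they summed to 30653.6 for Capn6-Wt and 20223.6 for Capn6-Ko. Of these, 8 were lower past 1.2-fold, among them Tagln (-0.61 ± 0.083), Acta2 (-0.60 ± 0.024), Col1a2 (-0.60 ± 0.074) and Pdgfrb (-0.53 ± 0.12), and Lum was not well above background. All 6 megakaryocyte markers were above 0, with summed signals of 12036.7 and 13283.9, and 3 were past 1.2-fold, namely Gp6 (0.47 ± 0.17), Gp9 (0.33 ± 0.12) and Gp1ba (0.29 ± 0.12). Most of the megakaryocyte sum is Pf4. The part of these other cells in the values below was not tested. In pooled RNA, fewer cells of a type and less RNA per cell cannot be told apart.

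The other marker lists were summed the same way, with Capn6-Wt first. For neutrophil markers, 8 of 10 measured, they were 69628 and 64925.1, and for dendritic cell markers, 3 of 8 measured, 84475.7 and 82647.1. Most of the neutrophil sum is Csf3r, and nearly all of the dendritic cell sum is Siglech and Itgax. These sums therefore do not measure the content of either cell type. The T and NK cell sums were 920.3 and 857, over 3 of 8 markers, and the B cell sums 365 and 363, over 4 of 7. The endothelial sums were 2291 and 2207, over 2 of 5 and mostly from Kdr, the erythroid sums 979.8 and 810.2, over 2 of 6, and the sums for mast cells and basophils 55.3 and 52.8, from 1 of 6. Among the defining markers not well above background on either array were Cd3d, Cd3g, Cd8a and Ncr1, Cd79a, Flt3, Zbtb46, Xcr1 and Cd209a, Mcpt8, Cpa3, Ms4a2, Prss34 and Hdc, Hbb-bs and Alas2, Cdh5, Tek and Emcn, and Retnlg. Past 1.2-fold in these lists were Ltf (0.33 ± 0.17) and, in the other direction, the dim Ms4a1 (-0.48 ± 0.33). Markers well above background on 1 array only included Clec9a (14.2 and 21.2) and Klf1 (27.5 and 9.9), each with the Capn6-Wt signal first.

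**Figure D2:**
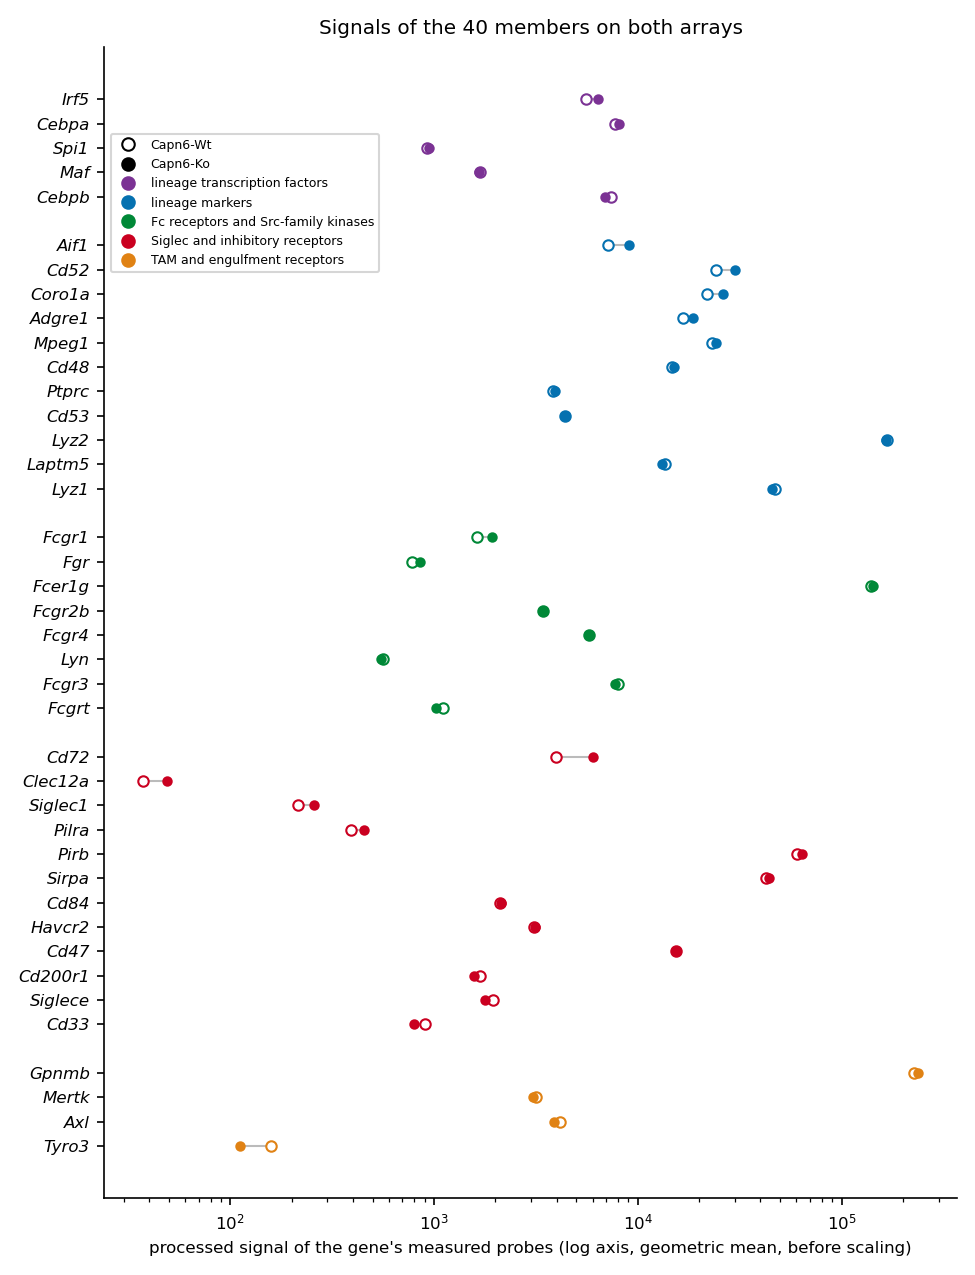
Processed signal (log axis, before scaling between arrays) of each of the 40 genes on the Capn6-Wt array (open) and the Capn6-Ko array (filled), 1 array each, as the geometric mean over the measured probes of the gene and grouped by role. The symbols overlap for most genes and separate most for Cd72 (3954 and 6045) and Tyro3 (158 and 111).

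The lineage transcription factors were close between the pools. Spi1, which encodes PU.1, the master regulator of the myeloid lineage, read 922 in Capn6-Wt and 948 in Capn6-Ko (0.06 ± 0.079). Cebpa, its partner in early myeloid commitment, read 7687 and 8043 (0.08 ± 0.083), and Cebpb, a C/EBP factor of mature macrophages, 7355 and 6908 (-0.07 ± 0.083). Maf, which supports the mature macrophage programme, read 1689 and 1662, a log2 difference of -0.0044. These 4 differences were no larger than about 1 spot SD.

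Irf5, a transcription factor of inflammatory macrophage activation, read 5589 in Capn6-Wt and 6355 in Capn6-Ko. Its difference of 0.20 ± 0.074 was more than 2 spot SDs but short of 1.2-fold. The median of the 5 factors was 0.06, and 0 of them were past 1.2-fold in either direction.

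Among the lineage markers 3 of 11 were at least 1.2-fold higher and 0 lower, with a median of 0.05. Aif1, an actin-binding protein of macrophages and microglia also known as Iba1, read 7175 in Capn6-Wt and 9067 in Capn6-Ko (0.36 ± 0.083, 1.28-fold). Cd52, a small glycosylated surface protein of leukocytes, read 24154 and 30062 (0.33 ± 0.083, 1.26-fold). Coro1a, the haematopoietic coronin that organises actin around phagosomes, read 21793 and 26076 (0.28 ± 0.083, 1.21-fold). The Capn6-Ko signal was the higher one for all 3, by more than 3 spot SDs. Each of these genes rests on 1 probe with a single spot per array.

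Adgre1, which encodes the macrophage surface marker F4/80, was covered by 2 probes. One read 11262 in Capn6-Wt and 12799.8 in Capn6-Ko (0.20 ± 0.083), and the other 24571 and 27416 (0.18 ± 0.083). The probes gave nearly the same difference, and the gene value of 0.19 ± 0.059 was past 2 spot SDs but not 1.2-fold.

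The other 7 lineage markers lay between -0.03 and 0.08. Mpeg1, the pore-forming perforin-2 of phagocytes, had 2 probes, at 0.07 (143362 and 148740.0) and 0.09 (3773 and 3953). Cd48, a SLAM-family ligand, had probes at 0.01 (22716 and 22512) and 0.10 (9577 and 10149). Ptprc, the leukocyte phosphatase CD45, read 3848 and 3942 (0.05 ± 0.074). These 3 genes were slightly above 0, by less than 2 spot SDs.

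Cd53, a tetraspanin, read 4398 in Capn6-Wt and 4415 in Capn6-Ko (0.02 ± 0.074). Laptm5, a lysosomal membrane protein of leukocytes, had probes at -0.0013 (17301 and 17069) and -0.05 (10641 and 10156). The lysozyme genes Lyz1 (47056 and 45557, -0.03 ± 0.083) and Lyz2 (167573 and 164586, -0.01 ± 0.083) were within 1 spot SD of 0. Lyz1 and Lyz2 are near-identical neighbouring genes, and whether each probe reads its own gene alone was not tested. Beside the lineage markers, the summed stromal signal was lower in Capn6-Ko, as given above. The part of stromal cells in the lineage marker values was not tested.

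**Figure D3:**
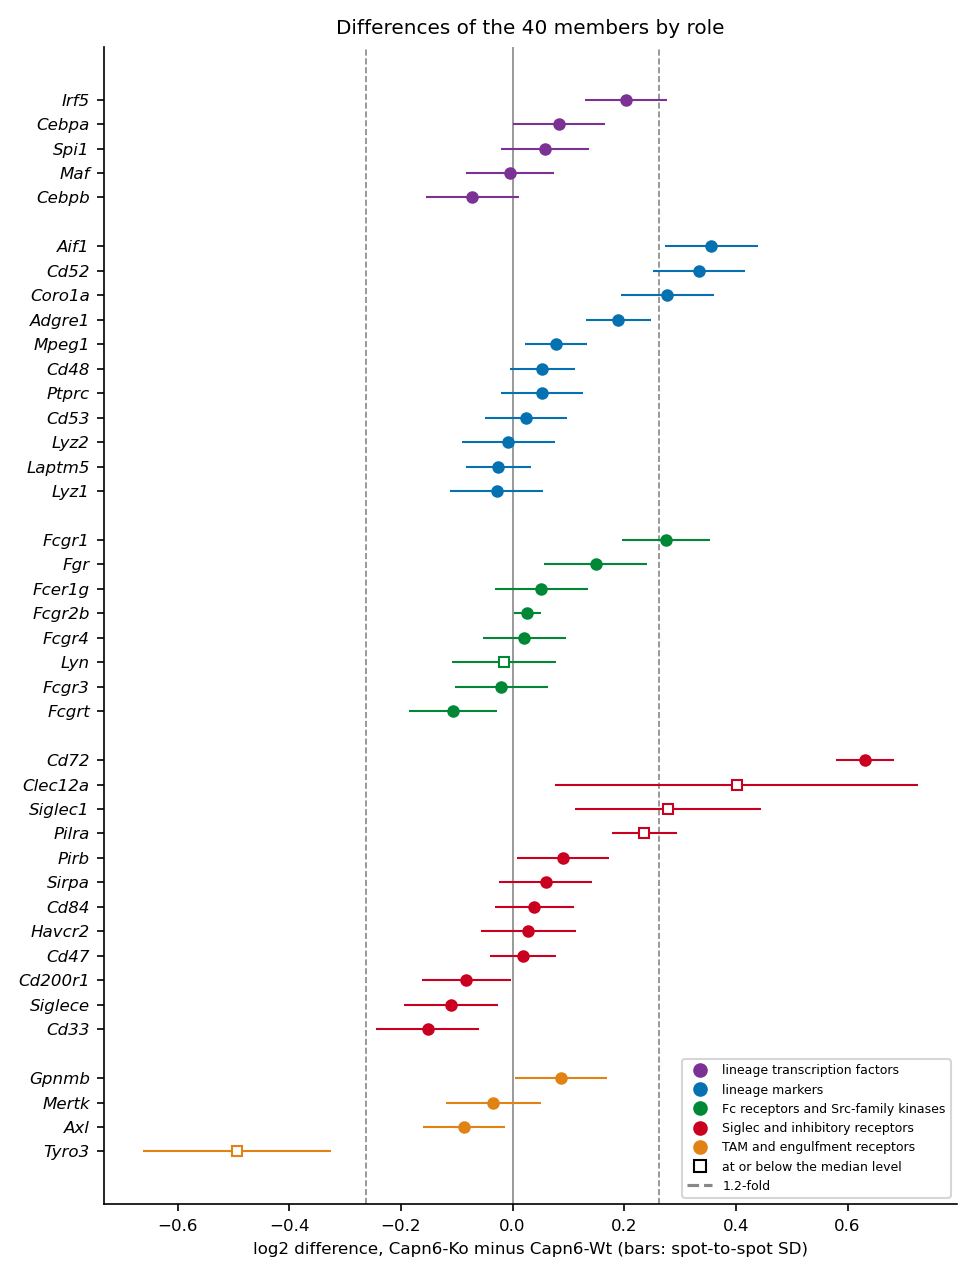
Log2 difference, Capn6-Ko minus Capn6-Wt, of the 40 members by role, 1 array per genotype, with bars of 1 spot-to-spot SD and dashed lines at 1.2-fold. Open squares mark the 5 genes at or below the median level, and Cd72 stands at 0.63, apart from the next bright gene, Aif1, at 0.36.

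The Fc receptors were close between the pools with the exception of Fcgr1. Fcgr1, the high-affinity IgG receptor CD64, read 1621 in Capn6-Wt and 1936 in Capn6-Ko (0.27 ± 0.079, 1.21-fold). It was the only one of the 8 Fc receptor and kinase genes past 1.2-fold, just beyond the size counted, and after normexp background correction, an alternative that models the local background, it was 0.24 and short of it.

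Fcgr2b, the inhibitory IgG receptor, is the best measured of the 40 genes, since its probe is printed in 10 spots per array. Over the 9 spots with no outlier flag on either array, the signals ran from 3316 to 3530 in Capn6-Wt, with a median of 3418, and from 3213 to 3625 in Capn6-Ko, with a median of 3443. The spots of both arrays overlapped, and the difference was 0.03 ± 0.025. Spots of 1 array are repeat readings of the same RNA, not replicates of the genotype.

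The activating receptors Fcgr3 and Fcgr4, which pair with Fcer1g, were near 0. Fcgr3 read 7979 in Capn6-Wt and 7769.8 in Capn6-Ko (-0.02 ± 0.083), and Fcgr4 read 5733 and 5744 (0.02 ± 0.074). Fcer1g, the signalling chain itself, read 139840.0 and 143084 (0.05 ± 0.083). In the order of coding genes on chromosome 1, Fcgr2b, Fcgr4 and Fcgr3 follow each other with 0 genes between them, and Fcer1g lies 7 genes on. All 4 differences of this cluster lay between -0.02 and 0.05. Fcgr2b and Fcgr3 are close in sequence, and cross-hybridisation between them was not tested.

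Fcgrt, the neonatal Fc receptor that recycles IgG, read 1112 for Capn6-Wt and 1019 for Capn6-Ko (-0.11 ± 0.079). The Src-family kinase Lyn, which phosphorylates ITAMs and ITIMs, read 565 and 552 (-0.02 ± 0.093). Fgr, a myeloid Src-family kinase, read 779 and 853 (0.15 ± 0.093). None of these 3 was past 2 spot SDs. The median of the 8 genes was 0.02.

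Among 12 Siglec and inhibitory receptor genes, 3 were higher past 1.2-fold in Capn6-Ko and 0 lower, and only Cd72 of the 3 was bright. Cd72, a C-type lectin-like co-receptor with an ITIM that is known best from B cells, was read by 2 probes of the same transcript. Probe A_55_P1961270 read 4405 in Capn6-Wt and 6829 in Capn6-Ko (0.65 ± 0.074). Probe A_55_P2180415 read 3548 and 5350.3 (0.61 ± 0.074). Both probes were higher in Capn6-Ko by nearly the same amount, and the gene value was 0.63 ± 0.052. Among the 6437 genes above the median level this was the difference of rank 4 from the top. The measured B cell markers summed to 365 and 363, and the defining marker Cd79a was not well above background.

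Clec12a, an inhibitory lectin receptor for uric acid crystals, read 37.4 in Capn6-Wt and 48.7 in Capn6-Ko. Its difference of 0.40 ± 0.33 was near 1 spot SD, and its level was at percentile 8.79 of measured genes. After normexp it was 0.17, short of 1.2-fold. Siglec1, the sialic acid receptor CD169, had 2 probes that disagreed. The bright one read 1621 and 1577 (-0.02 ± 0.079), and the dim one 28.5 and 42.0 (0.58 ± 0.33). The mean of 0.28 passed 1.2-fold through the dim probe alone, and the bright probe alone gave the other sign.

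Pilra, an ITIM receptor for sialylated O-glycoproteins, was higher on all 3 of its probes. They read 173 in Capn6-Wt and 197 in Capn6-Ko (0.20), 461 and 536 (0.24), and 740.5 and 882 (0.27). The gene value of 0.24 ± 0.058 was about 4 spot SDs and 1.18-fold, just short of the size counted. Pirb, the paired immunoglobulin-like inhibitory receptor, read 60551 and 63658 (0.09 ± 0.083). Pirb and Pilra have closely related activating partner genes, and probe cross-reaction with these was not tested.

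The brake on phagocytosis formed by Sirpa and its ligand Cd47 read nearly the same in both pools. Sirpa read 42673 for Capn6-Wt and 43915 for Capn6-Ko (0.06 ± 0.083). The probes of Cd47, the surface protein that marks cells as self, were at 0.0021 (16572 and 16388) and 0.04 (14275 and 14444). Neither gene was past 1 spot SD.

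Lower values in this group were small. Cd33, a Siglec, read 901 in Capn6-Wt and 801 in Capn6-Ko (-0.15 ± 0.093), and Siglece, the main inhibitory Siglec of mouse neutrophils and macrophages, 1943 and 1777 (-0.11 ± 0.085). These 2 genes lie near each other on chromosome 7, with 4 coding genes between them. Cd200r1, the receptor for the restraining ligand CD200, read 1689 and 1575 (-0.08 ± 0.079). None was past 2 spot SDs.

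Havcr2, which encodes the checkpoint receptor TIM-3, read 3094 in Capn6-Wt and 3115 in Capn6-Ko (0.03 ± 0.085). Cd84, a self-binding SLAM-family receptor, had a bright probe at -0.05 (11095 and 10596) and a dimmer one at 0.13 (401 and 432). The probes of Cd84 differed in sign, each within about 1 spot SD of 0. The median of the 12 genes was 0.05.

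**Figure D4:**
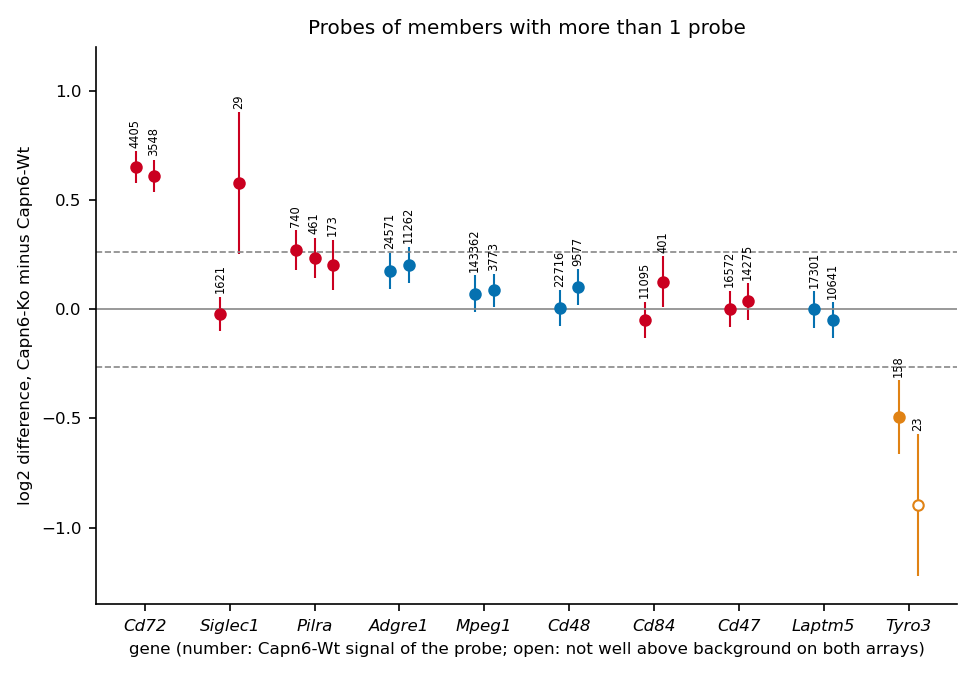
Log2 difference, Capn6-Ko minus Capn6-Wt, of each probe of the 10 members with more than 1 probe, with bars of 1 spot SD and the Capn6-Wt signal written at each point. The Cd72 probes coincide at 0.65 and 0.61, the Siglec1 probes part at -0.02 and 0.58, and the open Tyro3 probe was not well above background in Capn6-Ko.

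In the promoters of these genes, letters bound by PU.1 were found in genes that differed and in genes that did not. RefSeq promoter windows of the build GRCm38.p6 were at hand for 32 of the 40 genes, in 36 windows, and the 250 bases before each start were searched on both strands. The PU.1 core GAGGAA was in 44.4% of the member windows and in 23.25% of all 32851 windows, or 22.85% of those of genes above the median level. The longer form GAGGAAGT, which contains the core, was in 4 of 36 member windows and 2.44% of all. These 4 windows are printed 5′ to 3′ because they set Cd72 beside genes with the same letters and no such difference, and the capitals mark the longer form or its reverse complement ACTTCCTC.
Cd72 (chr4:43454627-43454876, minus strand): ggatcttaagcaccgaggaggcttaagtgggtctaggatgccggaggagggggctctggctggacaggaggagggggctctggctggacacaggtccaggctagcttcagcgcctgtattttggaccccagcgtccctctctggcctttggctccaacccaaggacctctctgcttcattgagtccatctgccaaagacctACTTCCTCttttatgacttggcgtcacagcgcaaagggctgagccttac
Fcgr4 (chr1:171018676-171018925, plus strand): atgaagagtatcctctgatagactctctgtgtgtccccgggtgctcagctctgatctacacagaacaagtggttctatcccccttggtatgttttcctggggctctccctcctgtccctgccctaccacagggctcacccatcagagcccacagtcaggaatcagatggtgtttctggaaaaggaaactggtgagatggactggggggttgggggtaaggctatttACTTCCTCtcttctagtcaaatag
Havcr2 (chr11:46454681-46454930, plus strand): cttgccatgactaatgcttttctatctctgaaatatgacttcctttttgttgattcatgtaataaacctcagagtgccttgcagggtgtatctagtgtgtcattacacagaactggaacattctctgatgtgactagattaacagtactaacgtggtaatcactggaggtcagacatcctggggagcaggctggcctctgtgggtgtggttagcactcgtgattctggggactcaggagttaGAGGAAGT
Pirb (chr7:3720383-3720632, minus strand): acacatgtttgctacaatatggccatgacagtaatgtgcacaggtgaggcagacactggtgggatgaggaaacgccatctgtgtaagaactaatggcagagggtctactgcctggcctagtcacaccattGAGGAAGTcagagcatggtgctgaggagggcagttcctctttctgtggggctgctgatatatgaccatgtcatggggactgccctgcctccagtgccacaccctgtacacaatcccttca

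In Cd72 the letters begin 49 bases before the start, in Fcgr4 24, in Havcr2 8 and in Pirb 120. The differences of these genes were 0.63, 0.02, 0.03 and 0.09. Genes with the core in a window had a median difference of 0.03 (15 genes), and those without it 0.04 (17 genes). The ETS-IRF composite, GGAA and GAAA with any 2 bases between them, was in 2 member windows, of Fcgr2b and Pilra, or 5.56% against 2.3% of all. The C/EBP letters TTGCNNAA were in 6, or 16.7% against 9.56%, among them Clec12a, Fcgr3 and Lyz1. A match describes these letters and no binding was measured.

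None of the 3 TAM receptors was higher in Capn6-Ko at the scaling used, and with median centring Mertk turned to 0.03. Mertk, the TAM receptor of resting macrophages, read 3173 in Capn6-Wt and 3059.6 in Capn6-Ko (-0.03 ± 0.085), and Axl, the one induced by inflammation, 4159 and 3868 (-0.09 ± 0.074). Tyro3 read 158 and 111 on its measured probe (-0.49 ± 0.17). That value was -0.29 after normexp background correction, still past 1.2-fold. Its second probe read 23.2 in Capn6-Wt and 12.3 in Capn6-Ko, where it was not well above background, so that Capn6-Wt was at least 1.63-fold higher there. For that bound the Capn6-Wt value was set against 14.0, the dimmest signal that counted as well above background in Capn6-Ko. Both Tyro3 probes read lower in Capn6-Ko, and both were dim, the measured gene at percentile 24.2 of level. Fibroblasts also express Axl, and the summed stromal signal given above was lower in the same pool. The Axl difference was about 1 spot SD, and the part of other cells in it was not tested.

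Gpnmb, a transmembrane glycoprotein of phagosome maturation, read 226875 for Capn6-Wt and 237964 for Capn6-Ko (0.09 ± 0.083). The median of the 4 genes was -0.06, and it turned to 0.0044 when each array was centred on its median.

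Other genes of the same pathways were described from 5 lists of named genes. Of 154 such genes 139 were measured, of which 8 were higher and 4 lower past 1.2-fold, against 4.12% and 7.15% of all measured genes. Of the 139 genes 105 were above the median level, where the shares over all genes were 1.29% higher and 1.1% lower. After normexp background correction 0 of the 139 genes were lower past 1.2-fold, and with median centring 17 were higher. At those settings 2.33% of all measured genes were lower and 7.08% higher. Among 33 measured genes of Fc receptor signalling 1 was higher past 1.2-fold, Dok2, an adaptor that dampens tyrosine kinase signals (5349.5 in Capn6-Wt and 6646 in Capn6-Ko, 0.33 ± 0.074), and the median was 0.03. The kinase gene Src was well above background in Capn6-Ko only (14.0 and 18.3, at least 1.12-fold higher). Among 27 genes for the engulfment of apoptotic cells 0 were higher by that size and 1 lower, the dim receptor gene Megf10 (-0.30 ± 0.33), with a median of 0.03.

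Among 35 further inhibitory and paired receptors 3 were higher and 1 lower, with a median of 0.06. Clec4a1, a C-type lectin receptor of the DCIR family, read 3116 in Capn6-Wt and 4086 in Capn6-Ko (0.41 ± 0.074). Siglecf, an inhibitory Siglec of eosinophils and alveolar macrophages, read 179 and 232 (0.39 ± 0.096). Clec5a (0.40 ± 0.33) and Siglecg (-0.53 ± 0.33) were dim, with all signals between 26.4 and 38.6. Of these 4 genes Clec4a1 alone was above the median level.

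Among 30 further transcription factors of blood lineages 2 were past 1.2-fold higher and 2 lower, and the median was -0.01. Id3, an inhibitor of E proteins, read 5963 in Capn6-Wt and 7105 in Capn6-Ko (0.27 ± 0.074). Gfi1b (0.28 ± 0.17), Elf4 (-0.38 ± 0.17) and Irf4 (-0.33 ± 0.33) were dim. Spib was well above background in Capn6-Ko only, with dim signals of 20.9 and 39.1. It was 1.9-fold higher there against its own Capn6-Wt signal, which was above the dimmest signal that counted. That value is a ratio of the 2 signals and not a bound. Among 15 further macrophage surface and lysosomal genes 2 were higher, the fractalkine receptor Cx3cr1 (1186 and 1760.2, 0.59 ± 0.059) and the endotoxin co-receptor Cd14 (4187 and 5319.7, 0.36 ± 0.074), 0 were lower and the median was 0.05.

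**Figure D5:**
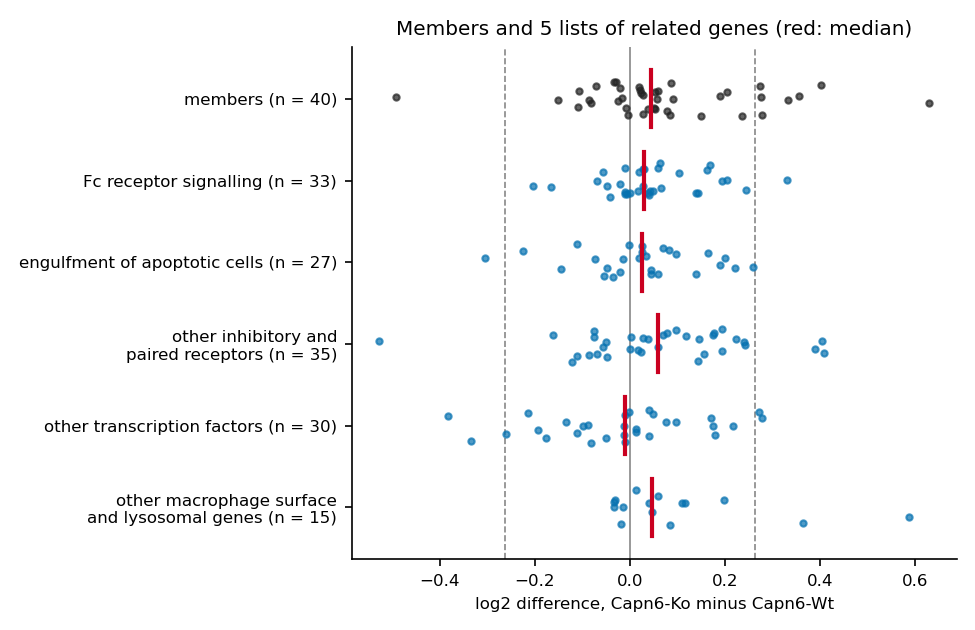
Log2 difference, Capn6-Ko minus Capn6-Wt, of the 40 members and of the measured genes in 5 lists of related genes, 1 point per gene with vertical jitter, red bars at the medians and dashed lines at 1.2-fold. All 6 medians lie between -0.01 and 0.06, and Cx3cr1 at 0.59 and Cd72 at 0.63 are the points furthest to the right.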

How the data were processed

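Each genotype was read on 1 Agilent array with 1 dye (Cy3). The deposited files give an intensity per spot, written by Agilent Feature Extraction version 10.10.1.1, as stated per the file headers. The processed signal is background-subtracted within each array and not scaled between arrays. The array design is annotated on mm9, per the file headers. The authors' value table is the same intensity times 2.39 for Capn6-Wt and 2.42 for Capn6-Ko, with column medians of 53.0 and 50.7. It is linear, uncentred and without direction, and the sources used here do not say how the constants were chosen. They bring the 75th percentiles of the columns to 900.67 for Capn6-Wt and 900.70 for Capn6-Ko. The table thus has nearly the same scaling as used here. Flags for background and outlier spots were used as deposited.

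Control spots and outlier spots (161 and 136) were left out. From each log2 signal the 75th percentile of the non-control spots was subtracted, and spots of a probe were averaged. Probes with most spots well above background in both genotypes were taken as measured, and a gene is the mean over its measured probes. Of 55678 probes 27232 matched a gene through RefSeq accessions (GRCm38.p6, used for names and gene order, with promoter windows from the same build). The spot SD comes from 263 measured probes with at least 5 of 10 spots per array, in 8 bins of level, scaled to the number of spots. Alternatives were 2 scalings, another background correction, the authors' table, 2 filters, the brightest probe and outlier spots kept. For normexp the spot median stood in for the mean signal. Python 3.11.15 (numpy 2.4.6, pandas 2.3.3) and R 4.3.3 (limma 3.58.1) were used, and the summary was tested on simulated data.

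The genes and lists were chosen with earlier results of these data known. All 40 genes are given, and of each other list up to 4 genes furthest in each direction past 1.2-fold. Genes well above background on 1 array are given as a fold, against the higher of the gene's own signal and the dimmest signal that counted as above background on the other, or as their signals. The fold is a bound only where the dimmest signal that counted was the higher. Single values of some marker genes are not reported here.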

Additional observations from a re-analysis of the deposited data

How the results depend on the processing

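All 8 alternatives kept the median over the 40 genes above 0 (0.025 to 0.11), and kept Cd72 (0.63 to 0.70), Aif1 (0.36 to 0.42), Cd52 (0.33 to 0.40) and Coro1a (0.28 to 0.34) past 1.2-fold. The value of 0.11 came from median centring. There the median over all measured genes was 0.059, and 70.8% of them were above 0. Fcgr1 ran from 0.24 to 0.34 and fell short of 1.2-fold after normexp, as did Clec12a (0.17) and Siglec1 (0.11). Tyro3 was -0.29 after normexp and -0.69 with no filter on dim probes. The count of members at least 1.2-fold higher ran from 4 to 9 and was 4 after normexp with an offset of 50. Of all measured genes 1.31% were that much higher after normexp and 7.08% with median centring, which gave the 9. The count lower was 0 with only probes above the median level, where Tyro3 was left out, and 1 otherwise. Siglec1 turned to -0.021 with the brightest probe alone and with only probes above the median level. The 8 further genes of related lists that were higher became 17 with each array centred on its median, and the 4 lower became 0 after normexp and 0 with only bright probes. Those 4 genes were dim, with signals from 21.5 to 67.7, so the filter left them out by design. The offset of 50 in normexp shrinks differences at such levels, and it acts likewise on the dim Clec12a and Tyro3. The shares of all genes lower were 2.33% after normexp and 1.75% with only bright probes. Of 318 values of single members under another setting, 303 moved by less than their spot SD. Many of these could hardly move. The authors' table has the scaling used here. For the 30 members with 1 probe, the filters and the brightest probe return the same value or leave the gene out. Normexp on the mean signal was not run, since the spot median was used. No paired analysis was possible because each genotype has 1 array. Signals near 14 to 17, the lowest well above background, limit the dim genes.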
